A study of Mus musculus with 12 samples.

Results

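Vegfa and 9 further genes that cells switch on when oxygen is short were followed through the H3K4me3 breadth at their starts, that is, the number of base pairs (bp) covered by deposited peaks. The 10 genes were Vegfa, Adm, Slc2a1, Ldha, Pdk1, Car9, Egln3, Bnip3, Ndrg1 and Ankrd37, out of 21883 protein-coding genes. Vegfa was chosen by its measured breadth, because its control region ranked among the widest and was narrower after both treatments, so its values against control are given as a description with no test. The other 9 were chosen by name as hypoxia targets. A gene's region was the merged peak region with the most covered bp within 1 kb of its start, and 12561 genes had one, in 11354 separate regions. All 10 genes were marked in all 6 H3K4me3 libraries.

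The series profiled the active promoter mark H3K4me3 and the Polycomb mark H3K27me3 by CUT&Tag, in which an antibody directs a DNA-cutting transposase to the marked chromatin. The material was tumour organoids derived from the PyMT mouse mammary tumour model, also called spheroids or tumoroids, genotype WT in every group, collected 3 days after treatment. The groups were control (Ctrl), SR2 and THC, each with 2 libraries per mark, and the replicate number was also the batch number. THC is the usual abbreviation of tetrahydrocannabinol, the title of the series refers to the cannabinoid receptor CB2R, and what SR2 stands for, the doses and the number of tumours behind the organoid line are not given in the sources used here. The libraries hold no RNA and no oxygen measurement, and no group was labelled as hypoxic. Values below are given as replicates 1 and 2 of each group.

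When oxygen falls, the prolyl hydroxylases that mark hypoxia-inducible factor (HIF) for destruction lose activity, and the stabilised factor binds short DNA elements near its targets. The targets serve vessel growth (Vegfa, Adm), glucose uptake and glycolysis (Slc2a1, Ldha, Pdk1), pH control (Car9), feedback on oxygen sensing (Egln3) and mitophagy or stress responses (Bnip3, Ndrg1). H3K4me3 sits at the starts of active and poised genes, and in mammary tumours many of these genes are read as markers of poorly perfused tissue.

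The 250 bases upstream of the start were read from RefSeq windows (GRCm38.p6, the assembly of mm10), which held 9 of the 10 genes. They were searched on both strands for ACGTG and GCGTG, the core of the element that HIF binds. The 4 windows printed here were picked because they stand for the patterns described later: Vegfa, whose mark was narrower in both treatments, Bnip3, narrower in both as well, Adm, with the lowest summits, and Egln3, whose breadth in SR2 stayed near Ctrl. Each is written 5′ to 3′ on the gene's strand, ending at the base before the start, with matches in capitals (CACGT and CACGC are the same motifs on the other strand). The windows are chr17:46032378-46032627 (minus strand) for Vegfa, chr7:138909507-138909756 (minus) for Bnip3, chr7:110627407-110627656 (plus) for Adm and chr12:54203875-54204124 (minus) for Egln3.
Vegfa: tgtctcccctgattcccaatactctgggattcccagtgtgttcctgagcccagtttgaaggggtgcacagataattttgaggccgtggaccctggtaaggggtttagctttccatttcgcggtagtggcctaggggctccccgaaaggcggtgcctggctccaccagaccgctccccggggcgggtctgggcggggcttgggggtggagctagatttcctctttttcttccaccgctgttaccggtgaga
Bnip3: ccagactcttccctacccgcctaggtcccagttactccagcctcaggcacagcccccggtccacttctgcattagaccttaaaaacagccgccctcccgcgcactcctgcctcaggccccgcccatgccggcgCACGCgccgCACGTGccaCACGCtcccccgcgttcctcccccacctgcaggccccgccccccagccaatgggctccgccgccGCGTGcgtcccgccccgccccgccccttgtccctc
Adm: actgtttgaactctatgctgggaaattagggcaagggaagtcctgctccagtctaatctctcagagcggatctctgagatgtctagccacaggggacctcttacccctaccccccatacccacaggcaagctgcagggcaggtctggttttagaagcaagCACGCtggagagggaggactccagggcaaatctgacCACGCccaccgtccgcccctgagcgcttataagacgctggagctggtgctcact
Egln3: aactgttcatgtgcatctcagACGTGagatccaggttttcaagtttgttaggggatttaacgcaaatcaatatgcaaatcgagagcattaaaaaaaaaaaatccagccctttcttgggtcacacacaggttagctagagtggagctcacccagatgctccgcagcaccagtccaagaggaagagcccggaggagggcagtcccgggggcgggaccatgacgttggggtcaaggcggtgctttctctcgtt

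The Vegfa window held no match of either motif, which says only that these letters do not occur in these 250 bases. The Bnip3 window held 5 matches, among them the palindrome CACGTG, which counts once on each strand. Adm had 2 matches and Egln3 had 1. Among the genes not shown, Ldha had 5 matches, including 2 copies of the palindrome, Ankrd37 had 4, of which 2 overlap, Slc2a1 had 2, and Pdk1 and Car9 had 1 each. Either motif occurred in 44.0% of 21262 such windows, ACGTG in 17.8% and GCGTG in 33.8%, so a match is a description and not a site. The 250 bases upstream of Ldha, Bnip3, Car9 and Ankrd37 were fully covered by peaks in all 6 libraries. The Vegfa window was covered over 250 and 250 bp in Ctrl, 129 and 250 bp with SR2 and 0 and 250 bp with THC, and the Adm window over 250 and 250, 247 and 250, and 0 and 250 bp.

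The libraries differed in strength. The H3K4me3 lists held 11924 to 18383 peaks, with fewer in each treated library than in either Ctrl library. The median summit pileup (fragments stacked at the peak's highest point, recovered from the deposited values) over regions marked in all 6 libraries was 128 and 95 in Ctrl, 49 and 77 with SR2 and 23 and 53 with THC. THC replicate 1 stood apart as the weakest library. Median breadth over the 9023 start regions marked in all 6 was 1298 and 1221 bp in Ctrl, 1087 and 1176 bp with SR2 and 828 and 1049 bp with THC, and over the 10 genes it was 2161.5 and 2083, 1771.5 and 1831, and 845 and 1443 bp. Of the epithelial markers Epcam, Krt8, Krt18, Krt19 and Cdh1, all 5 had a start region and 3 had it in all 6 libraries, with Krt18 and Krt19 at 0 in THC replicate 1. Their summed breadth was 7410 and 7088 bp in Ctrl, 6236 and 6114 bp with SR2 and 3487 and 5803 bp with THC. Of 7 endothelial markers only Kdr had a region (897 and 559 bp in Ctrl, 559 and 0 in SR2, 0 and 0 in THC), and Pecam1, Cdh5, Tek, Emcn, Tie1 and Vwf were at 0 everywhere. Of 6 fibroblast markers only Col1a1 had one (292 to 1142 bp), of 6 immune markers only Cd68 (0 to 391 bp), and of 3 pericyte markers none. The part of summit height and of these marker levels in each breadth was not tested.

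Vegfa encodes a secreted growth factor that drives endothelial growth and vessel formation. Its H3K4me3 region (mm10, chr17:46028714-46032831, 4118 bp, around the start at 46032377) covered 3654 and 4118 bp in Ctrl, 2493 and 2689 bp with SR2 and 2012 and 2851 bp with THC. Both libraries of each treatment lay below both Ctrl libraries, and the SR2 and THC values overlapped. The means were 3886 ± 328 bp for Ctrl, 2591 ± 139 bp for SR2 and 2431.5 ± 593 bp for THC (SD, n = 2 each), which is 33.3% lower in SR2 and 37.4% lower in THC. The ratio to Ctrl within a batch with SR2 was 0.682 and 0.653, and with THC 0.551 and 0.692, the higher THC ratio being that without the weak library. In a bulk profile, a narrower mark in each cell and fewer cells that carry the wide mark cannot be told apart.

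**Figure D1:**
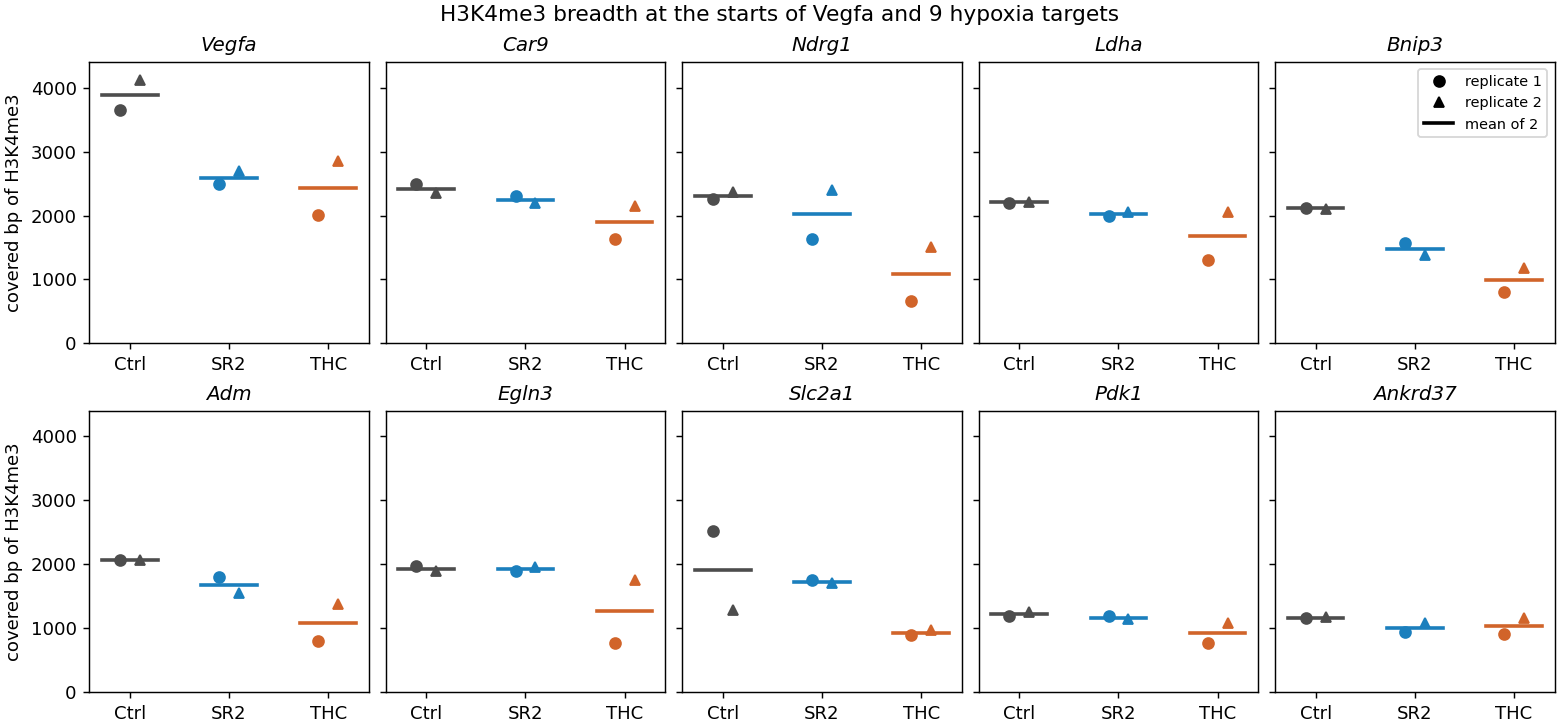
Covered bp of H3K4me3 at the start of each of the 10 genes, ordered by their Ctrl mean; points are single libraries (circle replicate 1, triangle replicate 2) and bars are means of 2. Vegfa stands highest in every group, from 3886 bp in Ctrl to 2591 bp in SR2 and 2431.5 bp in THC, and Bnip3 has means of 2114, 1472 and 990 bp.

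Within each library, Vegfa ranked 8 and 2 of all marked regions in Ctrl, 99 and 85 with SR2 and 78 and 24 with THC. By mean Ctrl breadth it held place 5 of 11354 start regions. Its neighbours in that order were Brd2 with H2-DMa (a shared region), Tob2, Dusp7 and Mxi1 above it, and Efna5, Dusp4, Midn, Cdk6 and Anp32a with Gm20346 below. The ratio of SR2 to Ctrl breadth was 0.667 at Vegfa and 0.816 to 0.992 at these 9 neighbours, the lowest of them at Brd2. The ratio of THC to Ctrl was 0.626 at Vegfa and 0.539 to 0.806 at the neighbours, where Brd2 lay lower and the other 8 higher. Vegfa was picked for this difference, so the contrast with its neighbours is a description.

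The Vegfa mark was covered in separate blocks in 5 of the 6 libraries. It was a single peak of 4118 bp in Ctrl replicate 2 and 2 peaks in Ctrl replicate 1, 2 and 3 peaks in SR2, and 2 and 3 in THC. Stretches of 442, 844 and 291 bp, at 68 to 509, 945 to 1788 and 2903 to 3193 bp into the gene, were covered in all 6 libraries, together 1577 bp or 38.3% of the region. A stretch of 189 bp at 2341 to 2529 bp into the gene and a stretch of 197 bp at its far end, 3467 to 3663 bp in, were covered in both Ctrl libraries and in no treated library. Of the mean loss in SR2, 1146 bp lay on the gene side of the start and 149 bp on the other side, and in THC 1146.5 and 308 bp.

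**Figure D2:**
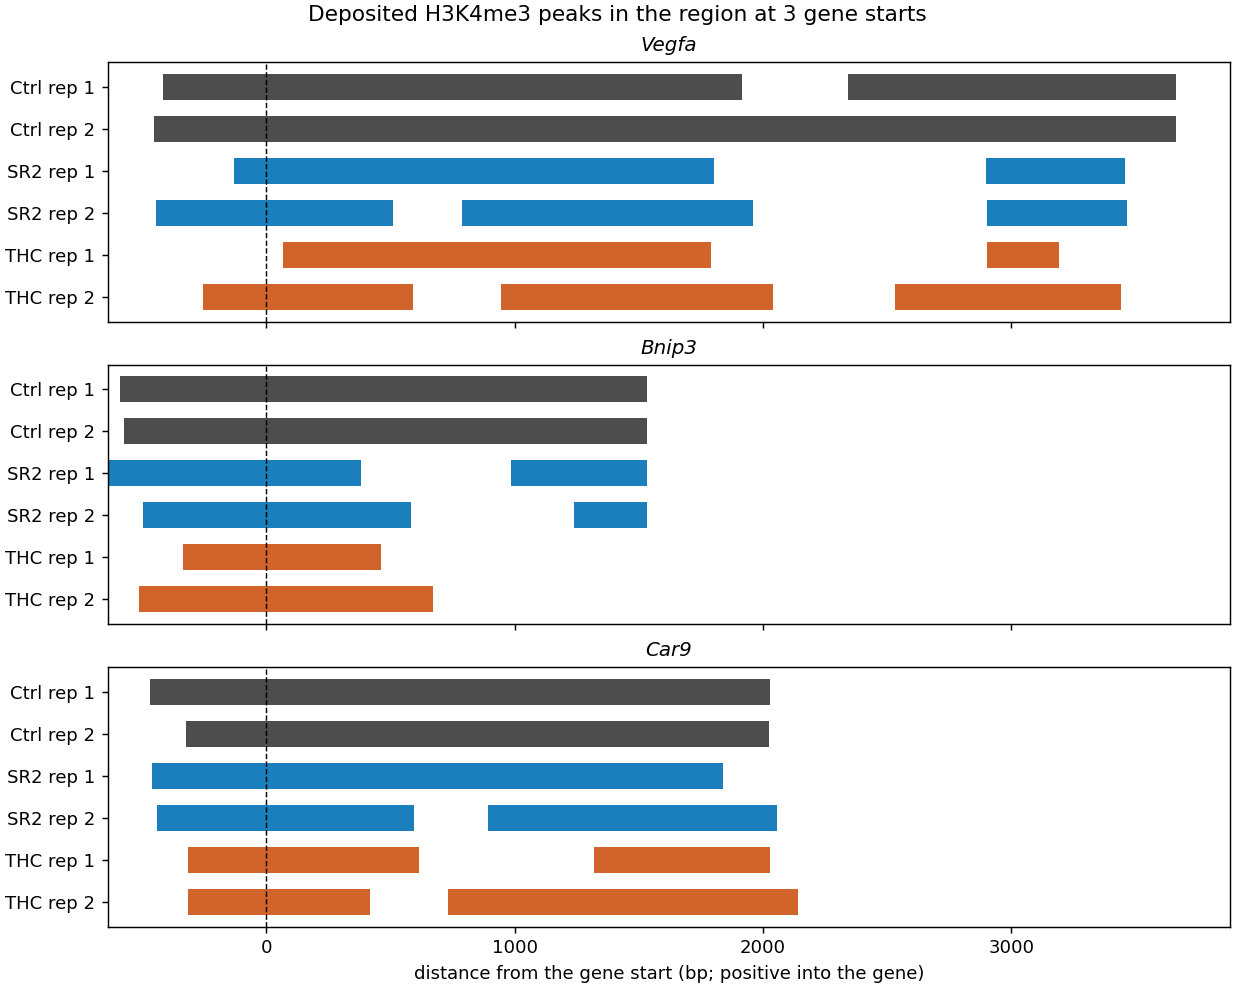
Deposited H3K4me3 peaks within the start region of Vegfa, Bnip3 and Car9, 1 line per library, against distance from the gene start in bp (positive into the gene); the dashed line is the start. At Vegfa the stretch 2341 to 2529 bp into the gene is filled in both Ctrl libraries and in no treated library, and at Bnip3 the gene-side end near 1531 bp is present in Ctrl and SR2 and missing in THC.

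Most of the bp lost at Vegfa lay far from the start. Beyond 2 kb into the gene the mark covered 1323 and 1663 bp in Ctrl, 561 and 564 bp with SR2 and 291 and 952 bp with THC. Within 2 kb of the start it covered 2331 and 2455 bp in Ctrl, 1932 and 2125 bp with SR2 and 1721 and 1899 bp with THC. In either part both Ctrl values lay above all treated values, and beyond 2 kb the SR2 and THC values overlapped. After each library was centred on its median breadth, the log2 change of the whole region was −0.41 in SR2 and −0.27 in THC (on the log2(bp + 200) scale), and in the window of 2 kb either side of the start it was −0.09 and −0.0053. With a minimum −log10 q of 5 per peak the THC change was −0.72, and without centring the changes were −0.55 and −0.65. Leaving out Ctrl replicate 2 gave a THC change of −0.15 and leaving out THC replicate 1 gave −0.17. THC against SR2 differed by 0.14 (SE 0.16; adjusted p = 0.760, limma with Benjamini-Hochberg adjustment over all regions), which did not pass the threshold of 0.05. Vegfa was chosen for low values in both treatments, so this comparison is not independent of the choice and nothing is read from it.

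The height of the Vegfa mark, scaled to its library, overlapped between the groups. The summit pileup was 185 and 132 in Ctrl, 77 and 96 with SR2 and 41 and 63 with THC. Divided by the library's median it was 1.45 and 1.39, 1.57 and 1.25 and 1.78 and 1.19, so that the highest and the lowest value were the 2 THC libraries. The summit lay 1391 to 1601 bp into the gene in 5 libraries and 259 bp in at THC replicate 2. The deposited fold enrichment at Vegfa was low, 2.89 to 3.73, within the lowest 1.66% to 6.11% of its list, beside a local background pileup of 10.3 to 59.9. A second Vegfa region inside the gene (chr17:46027437-46028114, 4602 bp from the start) covered 678 and 565 bp in Ctrl, 543 and 626 bp with SR2 and 0 and 419 bp with THC.

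The genes whose centred breadth over the 6 libraries was most like that of Vegfa, among 9665 genes with a region of their own, were Msl2 (distance 0.407 in log2 units), Foxo3 (0.462), Smarca2 (0.526), Myc (0.530) and Trib1 (0.541). Msl2, the nearest, covered 3333 and 3556 bp in Ctrl, 2616 and 3219 bp with SR2 and 2128 and 2452 bp with THC.

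Adm encodes the precursor of adrenomedullin, a secreted peptide that widens vessels. Its region (chr7:110627201-110629428) covered 2059 and 2060 bp in Ctrl, 1798 and 1542 bp with SR2 and 798 and 1374 bp with THC. Each treated library lay below both Ctrl libraries. Relative to the library centre, the log2 change of Adm with THC was −0.47 (SE 0.16; unadjusted p = 0.0245, adjusted p = 0.163, limma), which did not pass. It was −0.27 without THC replicate 1, −0.92 with a minimum −log10 q of 5 and −0.85 without centring. Its summits were the lowest of the 10 genes (44 and 31, 24 and 43, 15 and 26 fragments). With the same number of peaks kept from each library, the strongest by −log10 q, the Ctrl peaks of Adm are removed, and the THC change became +2.86 (adjusted p = 0.0413).

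Slc2a1, Ldha and Pdk1 act in glucose metabolism. Slc2a1, the basal glucose transporter (chr4:119108364-119111196), covered 2520 and 1286 bp in Ctrl, 1745 and 1710 bp with SR2 and 892 and 964 bp with THC. Its Ctrl libraries differed more than those of any other of the 10 genes, so SR2 lay between them, and both THC libraries lay below both. The ratio of SR2 to Ctrl was 0.692 in batch 1 and 1.33 in batch 2, opposite directions, and that of THC 0.354 and 0.750. Slc2a1 had the highest relative summit of the 10 genes in Ctrl and in THC, with means of 1.87 and 2.22 times the library median.

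Ldha, which turns pyruvate into lactate (chr7:46845372-46847591), covered 2201 and 2218 bp in Ctrl, 1987 and 2050 bp with SR2 and 1305 and 2051 bp with THC. Pdk1, a kinase that holds pyruvate dehydrogenase inactive (chr2:71872817-71874071), covered 1192 and 1254, 1189 and 1137, and 768 and 1077 bp. At both genes each treated library lay below both Ctrl libraries, but their ratios to Ctrl (0.914 and 0.951 in SR2, 0.759 and 0.754 in THC) were close to the median of all start regions marked in 6 libraries, 0.913 and 0.757. A region upstream of Ldha (chr7:46838682-46839684) covered 998 and 867 bp in Ctrl, 428 and 672 bp in SR2, and had no peak in either THC library.

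**Figure D3:**
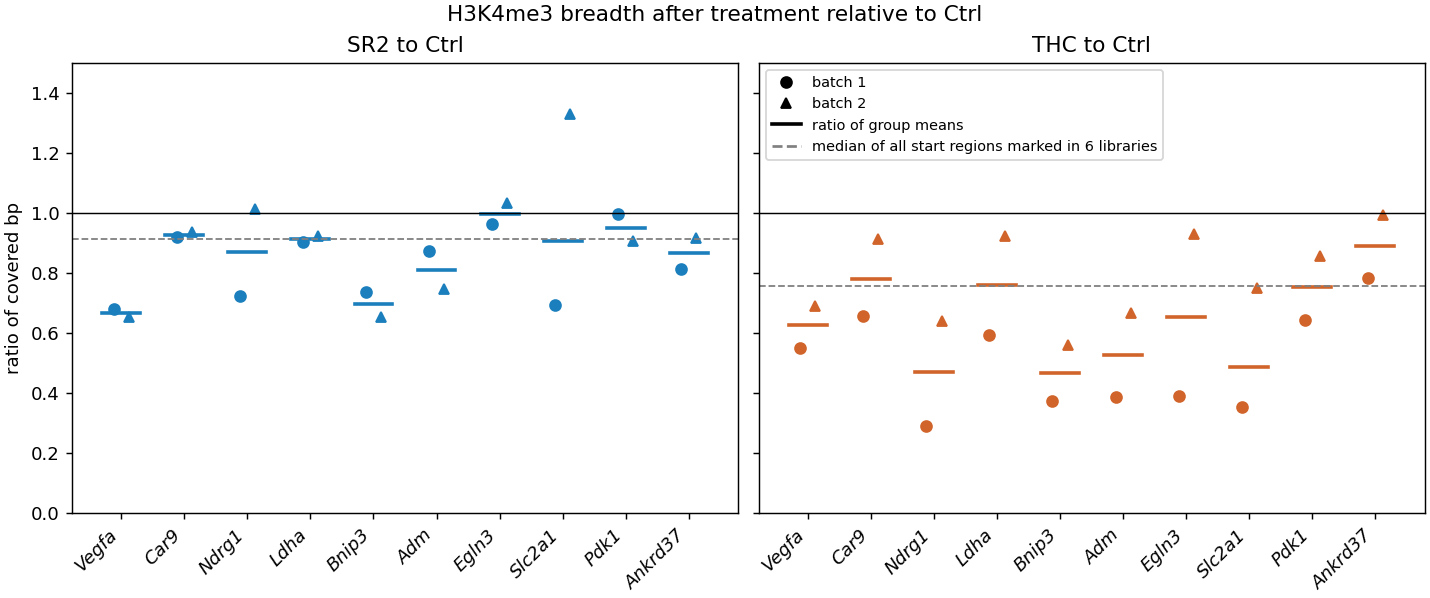
Ratio of covered bp to Ctrl for each gene, within batch 1 (circles) and batch 2 (triangles), with the ratio of group means as a bar; the solid line is 1 and the dashed line is the median of all start regions marked in 6 libraries. In SR2 the Vegfa (0.667), Bnip3 (0.696) and Adm (0.811) ratios lie below the median of 0.913 in both batches. That median is of ratios of group means and not of a single batch. After centring, the SR2 and Ctrl values of Adm overlapped. The SR2 batches of Slc2a1, Ndrg1 and Egln3 lie on opposite sides of 1. In THC every ratio of batch 1, which holds the weak library, lies below that of batch 2.

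Car9 encodes a membrane carbonic anhydrase that buffers pH at the cell surface, and Egln3 an oxygen-dependent prolyl hydroxylase that acts on HIF. Car9 (chr4:43506556-43509165, a region shared with the start of Arhgef39) covered 2498 and 2346 bp in Ctrl, 2298 and 2199 bp with SR2 and 1640 and 2142 bp with THC. All treated values lay below both Ctrl values in bp, yet after centring both THC values lay above both Ctrl values, with a log2 change of 0.04 (SE 0.10; adjusted p = 0.809, limma). Its direction was negative without centring (−0.34), with a pseudocount of 1000 bp (−0.018), with quantile normalization (−0.026), with a minimum −log10 q of 5 (−0.33) and in the window of 2 kb either side of the start (−0.015). Egln3 (chr12:54202010-54204109) covered 1969 and 1886 bp in Ctrl, 1896 and 1952 bp with SR2 and 770 and 1752 bp with THC. Its SR2 and Ctrl values overlapped in bp, and after centring both SR2 values lay above both Ctrl values, with a log2 change of 0.14 (SE 0.22; adjusted p = 1.00, limma) that was −0.0022 without centring. The ratio of THC to Ctrl at Egln3 was 0.391 in batch 1 and 0.929 in batch 2.

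Bnip3 encodes a receptor that sends mitochondria to autophagy. Its region (chr7:138907973-138910144) covered 2122 and 2106 bp in Ctrl, 1568 and 1376 bp with SR2 and 796 and 1184 bp with THC. The 3 groups did not overlap, and Bnip3 and Vegfa were the members whose treated libraries lay below Ctrl in both treatments after centring as well as before. The log2 change after centring was −0.33 in SR2 (SE 0.12; unadjusted p = 0.0323, adjusted p = 0.380, limma) and −0.60 in THC (SE 0.12; unadjusted p = 0.00255, adjusted p = 0.128), so neither passed. The SR2 change was −0.20 without SR2 replicate 2, −0.76 with a minimum −log10 q of 5 and −0.75 with the same number of peaks from each library, and the THC change without centring was −0.98. The THC change passed with a pseudocount of 50 bp (adjusted p = 0.0470), without centring (0.0304), with only the 4 libraries of the contrast (0.0471) and without THC replicate 2 (0.0406).

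The bp lost at Bnip3 lay mostly on the gene side, 627.5 bp in SR2 and 967.5 bp in THC against 14.5 and 156.5 bp on the other side. The summit stayed 2 to 24 bp from the start in all 6 libraries, and relative to the library median it was 1.36 and 1.58 in Ctrl, 1.31 and 1.32 with SR2 and 1.22 and 1.60 with THC. A further region in the gene body (chr7:138906828-138907438) covered 479 and 611 bp in Ctrl, 411 and 479 bp with SR2 and 254 and 453 bp with THC.

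Ndrg1 is induced by hypoxia and other stress, and Ankrd37 encodes a small ankyrin repeat protein. Ndrg1 (chr15:66967678-66970073) covered 2263 and 2362 bp in Ctrl, 1636 and 2396 bp with SR2 and 661 and 1512 bp with THC. SR2 replicate 2 was the widest of the 6 libraries, so SR2 and Ctrl overlapped, and both THC libraries lay below both Ctrl libraries. The THC log2 change was −0.67 (SE 0.25; unadjusted p = 0.0375, adjusted p = 0.195, limma), which did not pass. It was −0.31 without THC replicate 1, −1.05 without centring and −1.02 without THC replicate 2, the 1 alternative run under which it passed (adjusted p = 0.0378). Strand was not listed for Ndrg1, so its start was taken as the gene end that lies in the mark.

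Ankrd37 (chr8:45999093-46000373) had the narrowest Ctrl mark of the 10 and covered 1149 and 1170 bp in Ctrl, 936 and 1072 bp with SR2 and 902 and 1163 bp with THC. It was the 1 gene of the 10 whose THC and Ctrl values overlapped in bp. After centring, both THC values lay above both Ctrl values, by a log2 change of 0.23 (SE 0.09; unadjusted p = 0.0396, adjusted p = 0.199, limma). Against SR2 the change in THC was 0.27 (SE 0.09; unadjusted p = 0.0222, adjusted p = 0.407). Neither passed, and without centring the change was −0.15 against Ctrl and 0.028 against SR2. With a pseudocount of 1000 bp they were 0.14 and 0.16.

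**Figure D4:**
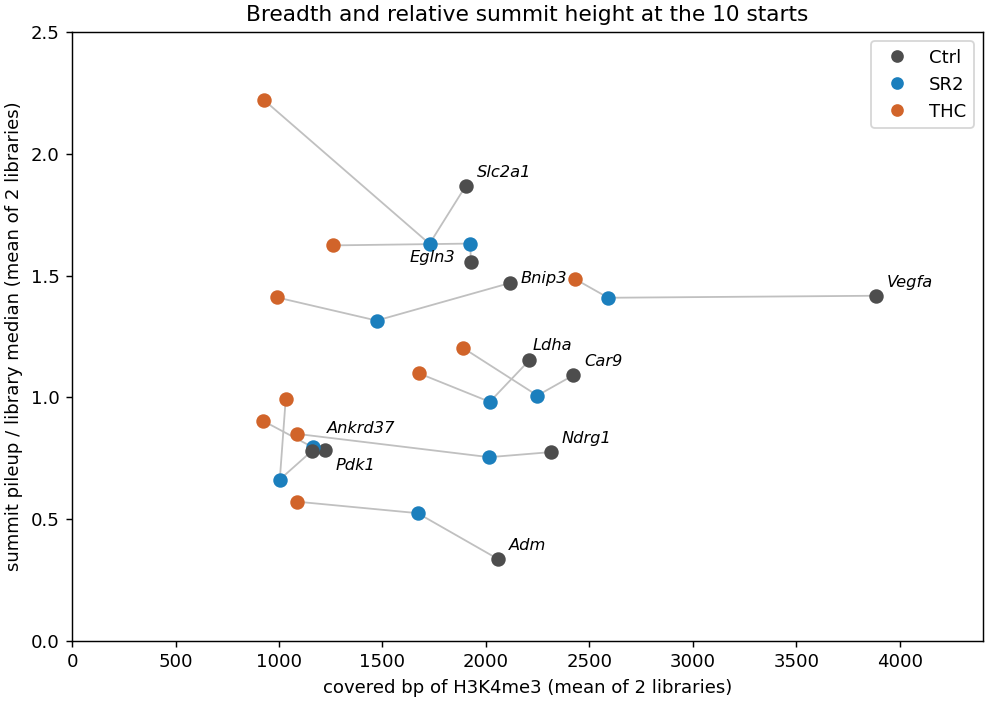
Mean covered bp of H3K4me3 against mean summit pileup divided by the library's median, per gene and group (means of 2 libraries); grey lines join the groups of a gene from Ctrl through SR2 to THC. Vegfa moves along the breadth axis from 3886 to 2431.5 bp while its mean relative height lies between 1.41 and 1.49. Its single libraries run from 1.19 (THC replicate 2) to 1.78 (THC replicate 1). Adm has the lowest relative height in each group, 0.335 to 0.571.

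Ordered by Ctrl mean, the breadths were 3886 bp at Vegfa, 2422 at Car9, 2312.5 at Ndrg1, 2209.5 at Ldha, 2114 at Bnip3, 2059.5 at Adm, 1927.5 at Egln3, 1903 at Slc2a1, 1223 at Pdk1 and 1159.5 at Ankrd37. Car9 and Ndrg1, and Egln3 and Slc2a1, are neighbours in this order whose 2 Ctrl values overlapped.

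Over the 10 genes, none of the 9 tested passed the adjusted threshold in SR2 or in THC against Ctrl, and 0 of 10 passed in THC against SR2 (limma). Vegfa is counted in the last although the rule used its treated values. The background was also 0%, 0 of 15772 regions in each of the 3 comparisons. At an unadjusted p under 0.05, 1 of 9 (Bnip3) was narrower in SR2, where 8.91% of all regions were. In THC 3 of 9 (Bnip3, Adm, Ndrg1) were narrower beside 18.4% of all regions, and 1 (Ankrd37) was wider beside 4.41%. In THC against SR2, 1 of 10 (Ankrd37) was wider beside 1.84%. With 2 libraries against 2, an exact permutation test of a single gene cannot give a two-sided p below 0.333.

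By non-overlap of libraries in covered bp, 7 of the 10 genes lay below Ctrl in SR2 (Vegfa, Ldha, Pdk1, Bnip3, Adm, Ankrd37, Car9), beside 49.4% of all regions and 48.6% of the start regions marked in 6 libraries. In THC 9 of the 10 did, all but Ankrd37, beside 80.3% and 84.7%, and the same 9 lay below both Ctrl libraries in THC replicate 2 alone, beside 86.2% of those start regions. After centring, 2 genes (Vegfa, Bnip3) lay below Ctrl in SR2 beside 25.4% and 15.3%, and 4 (Vegfa, Bnip3, Adm, Ndrg1) in THC beside 35.6% and 18.9%. Egln3 lay above Ctrl in SR2 after centring, 1 gene of 10 beside 18.1% of all regions, and Ankrd37 and Car9 in THC, 2 of 10 beside 20.2%. Vegfa is counted in these although the rule used its values, and nothing is read from its part in them. The median ratio of breadth to Ctrl over the 9 genes other than Vegfa was 0.908 in SR2 and 0.654 in THC, beside 0.913 and 0.757 over the start regions. Both treatments were set against the same 2 Ctrl libraries.

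H3K27me3 had no deposited peak at these genes. This held for all 10 genes, over the gene and its 5 kb flanks, in all 6 libraries. The lists were short and unequal, holding 2712 and 387 (Ctrl), 840 and 157 (SR2) and 984 and 70 peaks (THC), and reached 30 to 1733 of the 21883 protein-coding genes, so a missing peak says little about the mark.

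Of 63 further genes of the hypoxia response, 59 had a start region and 50 had it in all 6 libraries. None of the 59 passed the adjusted threshold in any comparison (limma). At an unadjusted p under 0.05, 5 were narrower and 0 wider in SR2 (8.91% and 0.653% of all regions). In THC 9 were narrower and 2 wider (18.4% and 4.41%), and in THC against SR2 5 were narrower and 1 wider (6.84% and 1.84%). Their median log2 change after centring was −0.05 in SR2 and −0.12 in THC, and that of the 9 genes above other than Vegfa was 0.019 and −0.25. For both sets, the background was −0.03 and −0.15 over all 15772 regions. Over the start regions marked in all 6 libraries it was 0.025 and 0.031. In covered bp, 26 of the 59 lay below Ctrl without overlap in SR2 and 45 in THC, beside 49.4% and 80.3% of all regions. After centring 16 and 18 did, beside 25.4% and 35.6%.

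Among the further genes of the VEGF family, Pgf, placental growth factor, was the widest with 2751 and 2359 bp in Ctrl, 2569 and 2981 bp with SR2 and 1136 and 2078 bp with THC. Vegfb covered 985 and 985, 762 and 838, and 604 and 828 bp, and Vegfc 1021 and 1049, 846 and 1166, and 290 and 967 bp. Vegfd had no region. Of these, only Vegfb had both SR2 libraries below both Ctrl libraries, beside 49.4% of all regions. The THC libraries of all 3 lay below Ctrl, beside 80.3% of all regions. After centring, Vegfb still had both SR2 libraries below both Ctrl libraries, beside 25.4% of all regions. None of the 3 had both THC libraries below both Ctrl libraries after centring, beside 35.6%.

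Among the receptors, the co-receptor Nrp1 covered 2532 and 2559 bp in Ctrl, 1229 and 1903 bp with SR2 and 657 and 1535 bp with THC, with no overlap between Ctrl and either treatment. Of all regions, 49.4% lay below Ctrl without overlap in SR2 and 80.3% in THC. Flt4, the lymphatic receptor, covered 1016 and 764, 362 and 631, and 0 and 0 bp, and Kdr, the main endothelial receptor, had no peak in SR2 replicate 2 or in either THC library. Flt1 covered 1409 and 1300, 919 and 1335, and 839 and 1378 bp, and Nrp2 1012 and 1036, 702 and 1014, and 934 and 690 bp. None of these passed the adjusted threshold.

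Of the oxygen sensors and HIF subunits, the 3 widest in Ctrl were Epas1 (HIF-2alpha), Cited2, which competes with HIF for coactivators, and the prolyl hydroxylase Egln1. Egln1 covered 1808 and 2145 bp in Ctrl, 985 and 1198 bp with SR2 and 886 and 803 bp with THC, so that no treated library reached Ctrl. The same held for 49.4% of all regions in SR2 and 80.3% in THC. Epas1 covered 2319 and 2307, 2266 and 2232, and 2034 and 2170 bp, and Cited2 2173 and 2362, 2149 and 2635, and 1949 and 2103 bp. In this group 9 of 10 genes had a region and Hif3a had none.

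Of the genes of glucose uptake, glycolysis and lactate export, Gapdh, Slc16a3 (the lactate exporter) and Pkm (pyruvate kinase) were widest. Slc16a3 covered 2740 and 2654 bp in Ctrl, 1942 and 2185 bp with SR2 and 835 and 1924 bp with THC, and Pkm 2751 and 2499, 1634 and 1629, and 803 and 2031 bp, both below Ctrl in each treated library. Gapdh covered 3211 and 2655, 3031 and 2743, and 1619 and 2435 bp, with SR2 between the Ctrl values. Over the 18 genes, 9 lay below Ctrl without overlap in SR2 and 14 in THC, beside 49.4% and 80.3% of all regions.

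In the mitophagy, stress and pH group the widest were Ddit4, a stress-induced inhibitor of growth signalling, the carbonic anhydrase Car12, and Ero1a, an oxidase of the endoplasmic reticulum. Car12 covered 2237 and 2105 bp in Ctrl, 1206 and 1811 bp with SR2 and 365 and 1302 bp with THC. Ddit4 covered 2558 and 2649, 2308 and 2334, and 1913 and 2308 bp, and Ero1a 1531 and 1767, 1111 and 1459, and 919 and 910 bp. At all 3 genes each treated library lay below both Ctrl libraries, beside 49.4% of all regions in SR2 and 80.3% in THC. After centring, 1 of the 6 genes of this group lay below Ctrl without overlap in SR2 and 3 in THC, beside 25.4% and 35.6% of all regions.

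Mxi1, a MAX-binding repressor, Bhlhe41 and the demethylase gene Kdm3a were the widest of the transcription and chromatin targets. Mxi1, just above Vegfa in Ctrl breadth, covered 3999 and 3861 bp in Ctrl, 3464 and 3958 bp with SR2 and 2654 and 3289 bp with THC. Its SR2 and Ctrl values overlapped. Bhlhe41 covered 3478 and 2345, 2628 and 2328, and 278 and 2185 bp, and Kdm3a 2099 and 2053, 2208 and 2026, and 834 and 1746 bp. The widest matrix genes had Ctrl means of 1349.5 bp at P4ha1 and 1013.5 bp at P4ha2, and Plod2 and Lox had no region. Of the other targets, Gys1 (a region shared with Ruvbl2), Ak4 and Stc2 were widest, with Ctrl means of 1814.5, 1784 and 1694.5 bp, and those of SR2 were 1732.5, 1697 and 1500.5 bp.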

How the data were processed

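The data were 6 H3K4me3 and 6 H3K27me3 CUT&Tag peak lists on mm10, each library made from 500000 cells and read as 150 bp pairs, per the labels' protocols. The submitters' processing notes name MACS3, bedtools, deepTools, Picard, SAMtools 1.8, cutadapt 5.2 and Bowtie2 2.5.4, without roles. The protocol texts name different dissociation enzymes. Peaks were called per library, and their deposited columns are start and end, a score, a fold enrichment (ratio) and the −log10 p and q by the authors' caller. The deposited score was not used, and fold and −log10 q only described or ranked peaks within a list. Lists hold no read totals. Summit and local background pileups were recovered from the deposited fold and −log10 p, with 100% of H3K4me3 summits whole within 0.005.

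Peaks overlapping by at least 1 bp were merged over the libraries (24596 H3K4me3 regions, 10140 marked in all 6), and covered bp were summed per library. Starts came from RefSeq windows for 17491 genes and from both gene ends for the other 4392. Breadth was tested with limma 3.58.1 (R 4.3.3, trend) on log2(bp + 200), libraries centred on their median over regions marked in all 6, in 1 fit of 15772 regions marked in at least 2 libraries, with Benjamini-Hochberg adjustment over all of them (threshold 0.05, two-sided), after testing on simulated data. Centring removed a shift of −0.14 (SR2), −0.38 (THC) and −0.24 (THC against SR2). A log2 change of one of the 10 genes is printed where its unadjusted p was under 0.05 or its centred Ctrl and treated values did not overlap, and for Vegfa. Of the pathway list, the VEGF family and receptors and the 3 widest in Ctrl of each role are named, except for 1 matrix gene that is not reported here. The 10 genes and all lists were chosen with earlier results of these data known.

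The labels do not say that replicates were separate cultures, so p-values measure only the spread between the deposited libraries, possibly a technical one. The batch number in the labels pairs the samples. Deviations of same-numbered samples correlated at −0.06 (Ctrl and SR2), 0.03 (Ctrl and THC) and 0.05 (SR2 and THC). Alternatives were other pseudocounts, normalizations, region filters, peak sets and windows, the replicate block, and leaving out each library.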

Additional observations from a re-analysis of the deposited data

How the results depend on the processing

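Each log2 change of the 10 genes was recomputed under 18 alternatives, and 19 of 30 changed sign under at least 1, 5 of them among the 11 printed above. Without centring, Egln3 in SR2 became −0.0022, and in THC Ankrd37 became −0.15 and Car9 −0.34. Car9 in THC was also −0.018 with a pseudocount of 1000 bp, −0.026 with quantile normalization, −0.33 with a minimum −log10 q of 5 and −0.015 in the fixed window. Adm in THC became 2.86 with the same number of peaks from each library. Vegfa in THC against SR2 became −0.10 without centring and −0.30 with a minimum −log10 q of 5. Against Ctrl, the Vegfa changes ran from −0.55 to −0.09 in SR2 and from −0.72 to −0.0053 in THC, negative under every alternative run. The −0.09 and −0.0053 were those in the fixed window. Vegfa was chosen for being narrower after both treatments, so its kept sign is a description.

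The number of genes called in THC against Ctrl, 0 in the report, was 1 with a pseudocount of 50 bp, without centring and with only the 4 libraries of the contrast (Bnip3 each time), and 1 with the same number of peaks (Adm). It ranged from 0 to 3 when 1 library was left out, the 3 (Bnip3, Ndrg1, Egln3) without THC replicate 2, which leaves the weak library as the only THC sample, assumed to vary like the others. In THC against SR2 that range was 0 to 1 (Egln3). The number of all regions called, 0 in the report, was 1059 (SR2) and 1417 (THC) with a pseudocount of 50 bp, 994 and 1914 without centring, and 2183 in THC without THC replicate 2. With only the 4 libraries of the contrast it was 1929 in THC against Ctrl, with regions marked in at least 1 library 39, with the same number of peaks 4, and in THC against SR2 it was 1189 without THC replicate 2. Genes below Ctrl without overlap after centring, 2 in SR2 and 4 in THC, were 7 and 9 without centring. Leaving out 1 library, chosen as an alternative after seeing the data, gave 3 to 4 in SR2, beside 32.8% to 45.6% of all regions, and 4 to 6 in THC, beside 40.8% to 52.7%. The cause of these differences was not tested.

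With the replicate block, none of the 9 genes tested against Ctrl passed, and 0 of 10 passed in THC against SR2. Bnip3 in THC kept −0.60 (adjusted p = 0.193, limma), so the block changed no call.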
